A study of Mus musculus with 6 samples.

Results

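The genes examined here are 9 genes of the GABAergic neurons of the cerebellum: the transcription factor genes Ptf1a, Pax2, Lhx1, Lhx5, Tfap2a and Tfap2b, and Gad1, Gad2 and Slc32a1, whose products make GABA and load it into synaptic vesicles. They were taken by gene name, with every probe that the array carries for them. All 9 were found, with 14 of the 55681 probes and 9 of the 34836 gene symbols on the array.

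Cerebellar neurons come from 2 germinal zones. Progenitors of the ventricular zone express the bHLH factor PTF1A and give rise to the GABAergic cells, that is Purkinje cells, GABAergic neurons of the nuclei and inhibitory interneurons, whereas progenitors of the rhombic lip express ATOH1 and give rise to the glutamatergic cells. The interneurons are made last, around birth and after it, from precursors that migrate through the prospective white matter and express PAX2 after they leave the cell cycle. LHX1 and LHX5 are LIM homeodomain factors of postmitotic GABAergic cells, and Purkinje cells express both. TFAP2A and TFAP2B act downstream of PTF1A. The enzymes GAD67, from Gad1, and GAD65, from Gad2, make GABA from glutamate, and the vesicular transporter VGAT, from Slc32a1, fills the vesicles.

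The study asked whether the surface antigen ACSA-2 separates classes of GLAST+ precursors in the neonatal cerebellum. Cell fractions were enriched with magnetic beads as A+/G+ (ACSA-2+/GLAST+) and A-/G+ (ACSA-2-/GLAST+), with 3 samples of each, 50000 cells per sample and 1 array with a single color per sample. The sample labels give wild-type CD1 mice of postnatal days 1 to 3, while the methods give P0/P1 and a C57BL/6 background for wild-type mice; cerebella of either sex were pooled, and both fractions carried neither a transgene nor a treatment. A+/G+ cells were taken up directly by beads against ACSA-2, without a step that selected on GLAST. The study counted the rare ACSA-2+/GLAST- cells with them. By its flow cytometry, both fractions were enriched but not pure. A-/G+ cells were first depleted with beads against ACSA-2, the neuronal antigens L1CAM and PSA-NCAM, the leukocyte antigen CD45 and the erythroid antigen Ter119, and were then selected by GLAST. The neuronal depletion was thus a step of the A-/G+ samples alone, and for each neuronal gene below it cannot be told apart from the fraction.

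The signals are intensities after the scanner software's background correction, on the log2 scale and quantile normalized so that the arrays share 1 distribution. A difference is the mean log2 signal in A-/G+ minus that in A+/G+, so that 1 is a doubling, and its adjusted p is from limma with Benjamini-Hochberg adjustment over all 55681 probes. A probe passed the test when its adjusted p was at most 0.05, and it passed both limits of the methods when the medians of the fractions were also at least 4-fold apart. Whether a probe was well above background on an array is the call of the scanner software. Signals of different probes do not give the order of transcript levels, so each gene is compared with itself. Where the signals of a list are summed, the brightest probes weigh most.

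Slide 1 held the A+/G+ arrays and slide 2 the A-/G+ arrays, so that a difference between slides cannot be told apart from one between fractions. The A+/G+ arrays had 26476 to 26655 probes well above background and the A-/G+ arrays 18340 to 24730. Over the probes well above background on all arrays, the signals of the A+/G+ arrays correlated with r of 0.990 to 0.992, while the A-/G+ arrays were less alike, with r of 0.957 to 0.974. The A-/G+ array of replicate 1 was the dimmest, with 18340 probes well above background, and lay farthest from the A+/G+ arrays (r of 0.940 to 0.943). That of replicate 3 lay closest to them (0.973 to 0.974). It lay nearly as close to them as to replicate 2 of its own fraction (0.974), and closer than to replicate 1 (0.957). Values without either array are given after the members. Of the antigens of the sort, Atp1b2, which encodes ACSA-2, had a higher signal in A+/G+, with a difference of -2.16 (adjusted p = 0.00725, limma). Slc1a3, which encodes GLAST, was bright in both fractions and had a difference of 1.19 (adjusted p = 0.0733, limma). Fabp7, a fatty acid binding protein of astroglia, was likewise bright in both fractions, with mean log2 signals of 16.43 (A+/G+) and 16.37 (A-/G+). Of the 12 astroglial genes listed below, however, 6 differed between the fractions on the test, so Fabp7 does not speak for that list. The limma p-values set the difference of the fraction means against the spread between samples within the fractions. That spread does not hold a difference between the slides. With 3 arrays in each fraction, the smallest p of a two-sided exact permutation test is 0.1.

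Each probe has 60 bases. Probes of 4 members are shown, and none was aligned to transcripts here. They include the single Ptf1a probe and the Lhx1 probe that spans 153 bases of the genome and so crosses a splice junction. The others are the Tfap2a probe for the start of transcript variant 1 and the probe within Slc32a1 upstream of the brighter one. All 4 are given 5′ to 3′ as on the array, in lower case with no base singled out. The array's annotation places them on mm9 as listed.
Ptf1a, chr2:19368720-19368779, plus strand: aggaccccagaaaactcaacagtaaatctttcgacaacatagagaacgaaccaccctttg
Lhx1 probe 1, chr11:84335442-84335594, minus strand: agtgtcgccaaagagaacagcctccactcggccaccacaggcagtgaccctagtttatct
Tfap2a probe 2, chr13:40829040-40829099, minus strand: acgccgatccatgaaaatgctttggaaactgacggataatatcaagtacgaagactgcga
Slc32a1 probe 2, chr2:158440166-158440225, plus strand: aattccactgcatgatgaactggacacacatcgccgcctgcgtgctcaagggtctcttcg

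Ptf1a, the gene at the head of this lineage, was higher in A-/G+. For replicates 1, 2 and 3 in turn, its log2 signal was 7.14, 7.71 and 7.79 in A+/G+ and 10.32, 10.64 and 9.73 in A-/G+. After normalization the fractions did not overlap. Before it, the signals were 236.3, 355.9 and 375.6 in A+/G+ and 357.5, 954.3 and 1097 in A-/G+, and the fractions overlapped. The probe shown above was well above background on all 6 arrays, so that Ptf1a signal was also measured in A+/G+. The means were 7.54 ± 0.36 (SD, n = 3) and 10.23 ± 0.46 (SD, n = 3), and the difference of 2.69 had a standard error of 0.306, a 95% interval from 1.90 to 3.48 and an adjusted p of 0.0134 (limma). The medians were 6.11-fold apart, past both limits. Of the 34525 probes that were higher in A-/G+, Ptf1a had the 81st largest difference. The direction was the same in each of 14 other settings, some of which change only the test and leave the difference as it is. However, the adjusted p was 0.0605 without replicate 2 and 0.0574 without replicate 3 of A+/G+ (limma). Without replicate 3 of A-/G+ the difference was 2.93 (adjusted p = 0.0110, limma).

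Tfap2b, for the AP-2 factor downstream of PTF1A, was the other member higher in A-/G+ on the test. Its probe, on chr1:19228555-19228614, gave 6.41, 7.52 and 6.69 in A+/G+ and 8.47, 8.82 and 8.28 in A-/G+. After normalization the lowest A-/G+ array lay above the highest A+/G+ array, and all 6 arrays were well above background. Before normalization the fractions overlapped, with signals of 141.8, 311.7 and 169.7 in A+/G+ and 98.47, 262.5 and 395.6 in A-/G+. The difference was 1.65 (standard error 0.336, 95% interval 0.78 to 2.52, adjusted p = 0.0495, limma), just inside the limit, and the medians were 3.44-fold apart, below the 4-fold limit. Its call rested on the setting: of 14 others, 5 kept the adjusted p at or below 0.05, and the adjusted p lay between 0.0434 and 0.169 (limma) with single arrays left out, where only the fit without replicate 2 of A+/G+ passed.

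Tfap2a, for the second AP-2 factor, has 2 probes. The brighter, on chr13:40811044-40811103, gave 7.73, 7.58 and 6.84 in A+/G+ and 7.78, 7.85 and 8.05 in A-/G+. The fractions did not overlap, but their edges lay close together, and the difference of 0.51 did not pass the test (standard error 0.261, 95% interval -0.16 to 1.18, adjusted p = 0.342, limma). On no array was the probe for variant 1, shown above, well above background. Its signals of 2.01 to 2.83 in A+/G+ and 4.13 to 4.98 in A-/G+ passed the test (adjusted p = 0.0234, limma), but a fold is not given because both sides lie within background. With normexp background correction its difference was 0.39, compared with 2.26 here.

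Pax2, the marker of immature inhibitory interneurons, was not measured above background. None of its 3 probes, which lie on chromosome 19, was well above background on any of the 6 arrays. The log2 signals ran from 1.90 to 5.31, and the differences of 0.43, -0.01 and -0.32 had adjusted p of 0.81, 0.997 and 0.538 (limma). The signs of the first and the second probe turned when replicate 1 of A-/G+ was left out.

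Lhx1 and Lhx5 were measured in both fractions. Lhx1 probe 1 gave 7.13, 6.88 and 6.69 in A+/G+ and 6.48, 6.19 and 7.41 in A-/G+, and the fractions overlapped (difference -0.21, 95% interval -1.12 to 0.71, adjusted p = 0.741, limma). Lhx1 probe 2, on chr11:84331888-84331947, gave 7.32, 7.05 and 6.53 in A+/G+ and 4.79, 5.39 and 7.04 in A-/G+. The A-/G+ array of replicate 3 was at the A+/G+ level, the array of replicate 1 was not well above background, and the difference of -1.23 did not pass (adjusted p = 0.354, limma; standard error 0.642). Without replicate 3 of A-/G+, this probe passed with a difference of -1.87 (adjusted p = 0.0380, limma), whereas probe 1 did not (difference -0.56, adjusted p = 0.126, limma), so the probes of Lhx1 disagree on the size. Lhx5, with a probe on chr5:120891144-120891203, gave 7.83, 7.88 and 6.61 in A+/G+ and 6.71, 7.26 and 8.19 in A-/G+. The arrays of the fractions interleaved, and the difference of -0.05 had a 95% interval from -1.45 to 1.35 (adjusted p = 0.966, limma), which leaves room for a change of more than 2-fold in either direction.

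**Figure D1:**
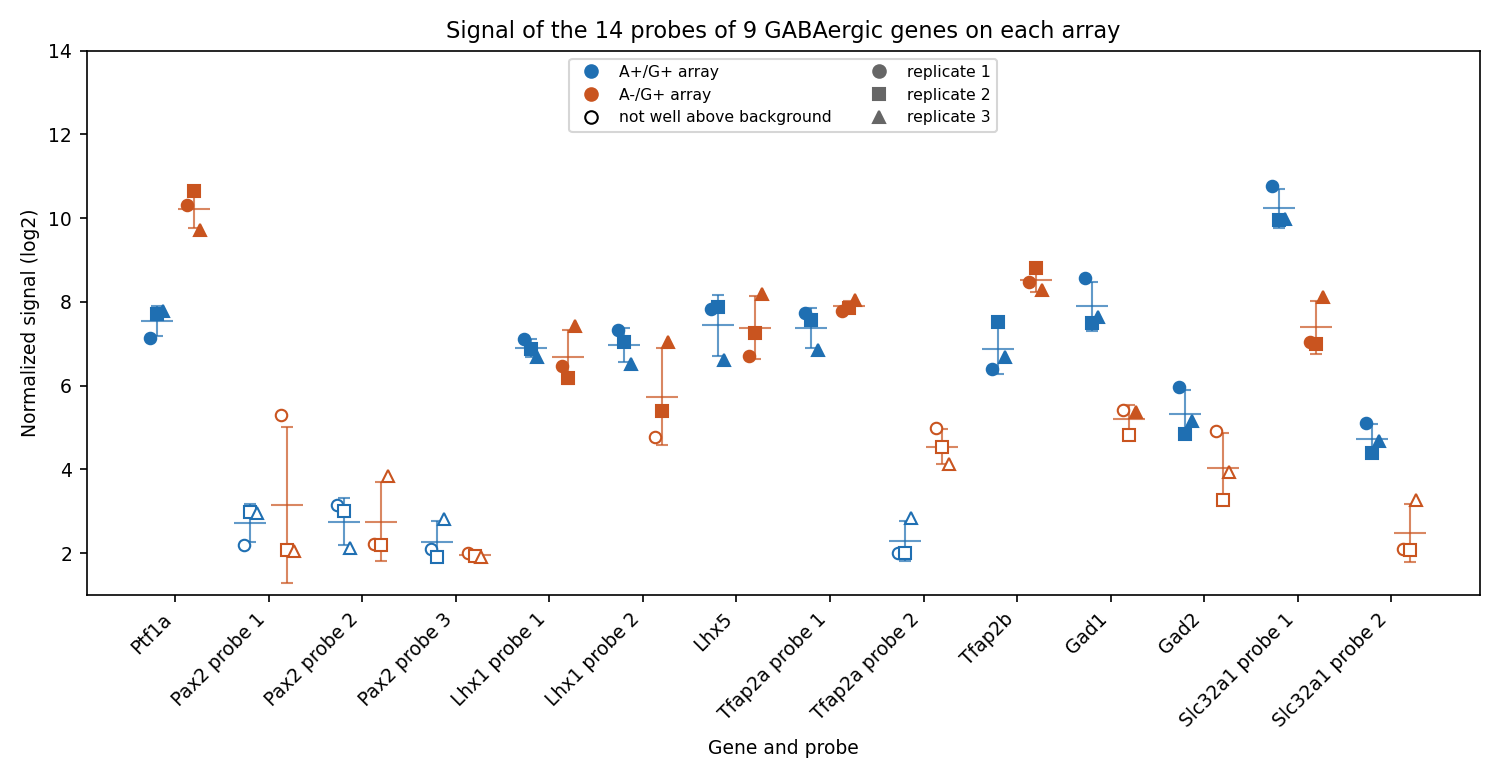
Normalized log2 signal (vertical axis) of the 14 probes of the 9 genes (horizontal axis) on the 3 A+/G+ arrays (blue) and the 3 A-/G+ arrays (orange), with the mean and SD of each fraction; symbols give the replicate, and open symbols are signals not well above background. Ptf1a and Tfap2b lie higher in A-/G+, Gad1 and both Slc32a1 probes higher in A+/G+, and the 3 Pax2 probes are open throughout.

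Of the genes of GABA synthesis and release, Slc32a1 and Gad1 ran the other way and Gad2 did not pass the test. Slc32a1 probe 1, on chr2:158441324-158441383, gave 10.77, 9.96 and 9.98 in A+/G+ and 7.05, 7.0 and 8.13 in A-/G+. The fractions did not overlap, although all A-/G+ arrays were still well above background. The means were 10.24 ± 0.47 (SD, n = 3) and 7.39 ± 0.63 (SD, n = 3), and Slc32a1 was lower in A-/G+ with a difference of -2.84 (standard error 0.411, 95% interval -3.90 to -1.78, adjusted p = 0.0224, limma) and medians 7.59-fold apart. Its probe 2, shown above, passed in the same direction (difference -2.25, adjusted p = 0.0377, limma), but on none of the A-/G+ arrays was it well above background, and no fold is given. With normexp the difference of probe 2 was -0.48, and it did not pass with the 75th percentile shift (-1.32, adjusted p = 0.0501, limma) or with the methods' t-test (adjusted p = 0.0839). The adjusted p of probe 1 was 0.0124 without replicate 3 of A-/G+ and 0.0622 to 0.0824 (limma) without any other single array.

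Gad1, on chr2:70439699-70439758, gave 8.56, 7.49 and 7.64 in A+/G+ and 5.43, 4.82 and 5.37 in A-/G+. The fractions did not overlap, and in A-/G+ only the array of replicate 3 was well above background. The difference was -2.69 (standard error 0.352, 95% interval -3.60 to -1.78, adjusted p = 0.0181, limma), and the medians were 4.81-fold apart. With normexp background correction the difference was -1.62 and the medians were 2.52-fold apart, below the 4-fold limit. The adjusted p was 0.0580 without replicate 2 and 0.0701 without replicate 3 of A+/G+, and 0.0526 without replicate 2 of A-/G+ (limma). Gad2, on chr2:22549095-22549154, gave 5.96, 4.84 and 5.17 in A+/G+ and 4.92, 3.28 and 3.95 in A-/G+. All A+/G+ arrays but none of the A-/G+ arrays were well above background, which gives a bound of at least 1.37-fold toward A+/G+. However, the fractions overlapped, and the difference of -1.28 did not pass the test (95% interval -2.63 to 0.07, adjusted p = 0.24, limma). In bulk samples such as these, fewer cells of a type and less RNA per cell cannot be told apart.

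**Figure D2:**
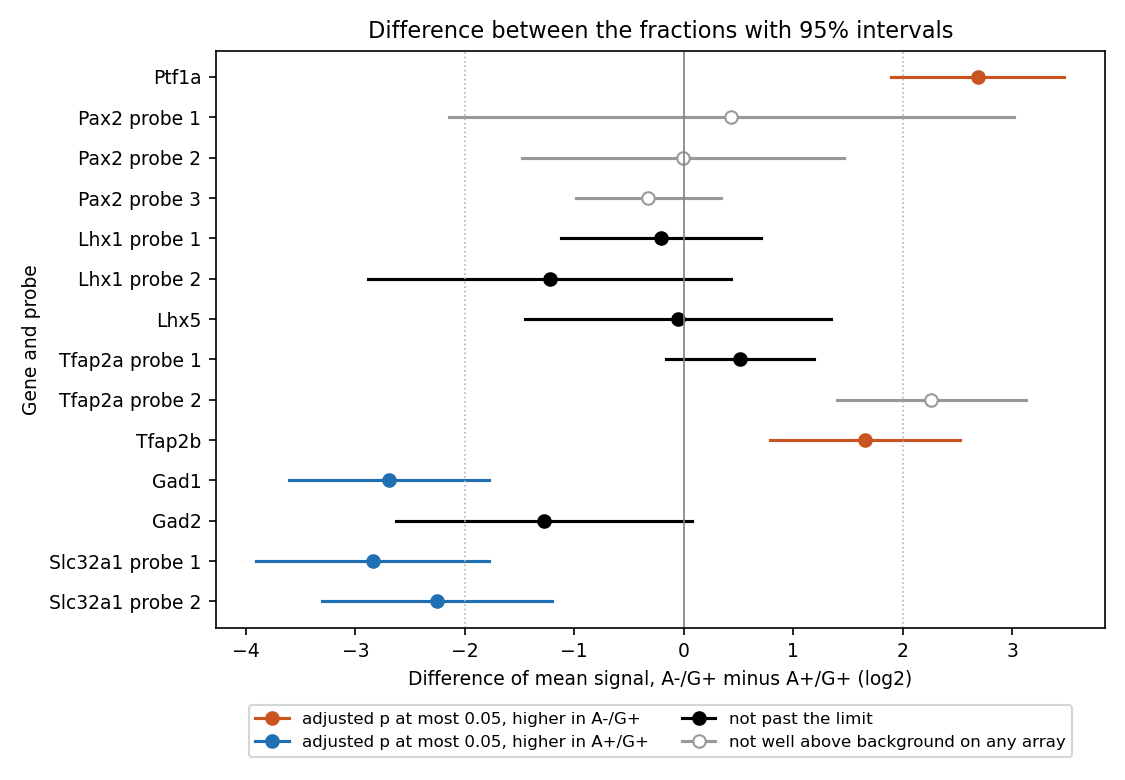
Difference of the mean log2 signal, A-/G+ minus A+/G+ (horizontal axis), with its 95% interval from limma for each of the 14 probes (vertical axis); dotted lines mark a 4-fold difference. Ptf1a and Tfap2b lie to the right of 0, Gad1 and Slc32a1 to the left, and the intervals of Lhx1, Lhx5, Tfap2a probe 1 and Gad2 include 0.

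Taking the brightest probe of each gene, 2 of the 9 members (Ptf1a and Tfap2b) passed the test higher in A-/G+, 2 (Gad1 and Slc32a1) passed higher in A+/G+ and 5 did not pass. Over all gene symbols, 4.82% passed toward A-/G+ and 5.63% toward A+/G+. Both limits were passed by 1 member toward A-/G+ and 2 toward A+/G+, compared with 0.425% and 1.93% of all gene symbols. The median difference of the members was -0.05, and that of all gene symbols was 0.05. By probe, 3 of the 14 passed higher in A-/G+, of which 1 was the dim Tfap2a probe, against 4.64% of all probes, and 3 passed higher in A+/G+, against 4.65%. Both limits were passed by 2 and 3 of the 14, where the shares of all probes were 0.399% and 1.53%. Of the 14 probes, 4 had the A-/G+ arrays entirely above the A+/G+ arrays and 3 the reverse, where the shares over all probes were 24.3% and 12.7%. With 14 probes of 9 genes these counts are small. The shares over all gene symbols and all probes also include dim ones. Of 34825 gene symbols without an empty value, 14428 were well above background on no array, against 1 of the 9 members. With the filter on dim probes, 3330 of 25178 probes passed toward A-/G+ and 3249 toward A+/G+. Of the 10 member probes kept by that filter, 2 and 3 passed. The shares over all probes are thus a low yardstick for measured probes.

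Within A-/G+ the replicates were not alike for these genes. Without replicate 3, the differences were 2.93 for Ptf1a, -2.77 for Gad1 (adjusted p = 0.0293, limma) and -3.21 for Slc32a1, all of which passed, and 1.78 for Tfap2b (adjusted p = 0.0630, limma), which did not, while those of Lhx5, Gad2 and the brighter Tfap2a probe were -0.46, -1.21 and 0.44 and did not pass either. Without replicate 1, Ptf1a (2.65, adjusted p = 0.0438, limma) and Gad1 (-2.87, adjusted p = 0.0471, limma) passed, and Slc32a1 (-2.68, adjusted p = 0.0622, limma), Tfap2b (1.70, adjusted p = 0.114, limma), Gad2 (-1.85), Tfap2a (0.57), the Lhx1 probes (-0.10 and -0.77) and Lhx5, whose sign turned (0.29), did not. No Pax2 probe passed without either array. The array of replicate 3 was the highest of its fraction for 6 of the 10 measured probes, among them both Lhx1 probes, Lhx5 and both Slc32a1 probes, and the lowest for 2, Ptf1a and Tfap2b. Of the 17 pan-neuronal genes described below, 13 were highest of A-/G+ on that array, and 2 each on the arrays of replicates 1 and 2. Within A+/G+, the array of replicate 1 was the highest for Gad1, Gad2 and Slc32a1 alike, and it was the lowest for Ptf1a and Tfap2b. That array also had the highest summed signal of 14 Purkinje cell genes and of the pan-neuronal genes.

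The 9 genes stand within a wider set of 27 genes of the GABAergic lineage, of which 4 passed the test higher in A-/G+, 3 higher in A+/G+ and 20 did not pass, with a median difference of 0.06. Those higher in A-/G+ included Kirrel2, an adhesion molecule gene regulated by PTF1A, by 2.95 (adjusted p = 0.00799, limma). Nphs1, which encodes nephrin, was higher by 3.16 (adjusted p = 0.0148, limma), and Bhlhe22 by 1.17 (adjusted p = 0.0270, limma). The study named Ptf1a, Kirrel2 and Nphs1 from these same arrays, so their direction is not independent evidence. It also cites nephrin as a product of radial glia in the neonatal cerebellum. Higher in A+/G+ were Olig2, a bHLH gene of early ventricular zone progenitors and of oligodendrocyte precursors (difference -4.23, adjusted p = 0.00389, limma), Skor2, a corepressor gene of Purkinje cells that was at least 1.98-fold higher (adjusted p = 0.0183, limma), and Foxn4, a forkhead gene (difference -6.24, adjusted p = 0.0289, limma, well above background on 1 A-/G+ array). Of the 27 genes, 10 had the A-/G+ arrays entirely above the A+/G+ arrays and 5 the reverse, against 24.3% and 12.7% of all probes. Among the 10 were Neurog1 and Pax8, which were well above background on none of the arrays. These shares are over all probes, dim ones included, while each of the 27 genes is represented by its brightest probe.

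Among the 17 genes of GABA handling and interneuron maturation, 2 passed toward A-/G+ and 7 toward A+/G+, and the median difference was -0.28. Pvalb, the calcium buffer parvalbumin, exceeded its A+/G+ signal in A-/G+ by 1.81 (adjusted p = 0.00707, limma), as did Kit, a receptor tyrosine kinase of molecular layer interneurons, by 1.81 (adjusted p = 0.0113, limma). For Cck, a neuropeptide gene, none of the A-/G+ arrays was well above background, which puts A+/G+ at least 19.3-fold higher (adjusted p = 0.0134, limma). When the arrays were aligned at the 75th percentile and not quantile normalized, 4 instead of 7 genes of this list passed higher in A+/G+.

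Of the 16 genes of the glutamatergic lineage, 2 passed toward A-/G+ and 1 toward A+/G+. Pax6, a homeobox gene of granule cell precursors, had a difference of 1.54 (adjusted p = 0.00730, limma), and Zic2, a zinc finger gene of the same list, had a difference of 2.09 (adjusted p = 0.0224, limma). Meis2, of rhombic lip derivatives, was higher in A+/G+ (difference -4.81, adjusted p = 0.0187, limma, well above background on 1 A-/G+ array). Higher signal in A-/G+ was thus not restricted to transcription factor genes of the GABAergic lineage.

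Markers of Purkinje cells and of neurons at large were set beside Gad1 and Slc32a1. Of 14 Purkinje cell genes, 6 passed toward A+/G+ and 2 toward A-/G+, the median difference was -1.49, and their summed signal was 9400 to 18600 in A+/G+ and 5520 to 6510 in A-/G+. The clearest were Car8, at least 2.56-fold higher in A+/G+, Pcp2, with a difference of -4.99 (adjusted p = 0.00867, limma), Calb1, the calcium buffer calbindin, at least 23.9-fold higher, and Pcp4, with a difference of -3.14 (adjusted p = 0.0235, limma). Of the A-/G+ arrays, 2 were well above background for Pcp2 and none for Calb1 and Car8. Of 17 pan-neuronal genes, 0 passed with limma and 0 with the methods' t-test, with 8 at an unadjusted p under 0.05 in limma, but 13 had a higher mean in A+/G+, their median difference was -0.83, and their summed signal was 22600 to 36100 in A+/G+ and 16600 to 23800 in A-/G+. Ncam1, the brightest of them, had a difference of -0.15 (adjusted p = 0.572, limma). The part of neurons in the Gad1 and Slc32a1 results was not tested.

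Glial markers moved in both directions. All 7 Bergmann glia genes, of the radial astroglia beside Purkinje cells, passed toward A-/G+, and they had a median difference of 3.08 and a summed signal of 4260 to 5190 in A+/G+ and 17900 to 27100 in A-/G+. These were led by Npy, Mybpc1, Gria1 and Gdf10. The study named most of them from these arrays, and this list is not independent evidence of its direction. Of 12 astroglial genes, 5 passed higher in A+/G+, among them Atp1b2, whose direction the sort fixes, Gja1, a gap junction gene, with a difference of -3.03 (adjusted p = 0.00380, limma), Aldoc, with -1.35 (adjusted p = 0.0175, limma), and Gfap, with -3.03 (adjusted p = 0.0182, limma), and 1 passed higher in A-/G+. Of the 4 oligodendrocyte precursor genes, 2 passed higher in A+/G+, Olig1, with a difference of -4.43, and Pdgfra, with -1.70, and their summed signal, most of it from the Olig1 probe in A+/G+, was 11500 to 14100 in A+/G+ and 1060 to 2150 in A-/G+. Olig2 of the wider GABAergic set moved with this list.

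**Figure D3:**
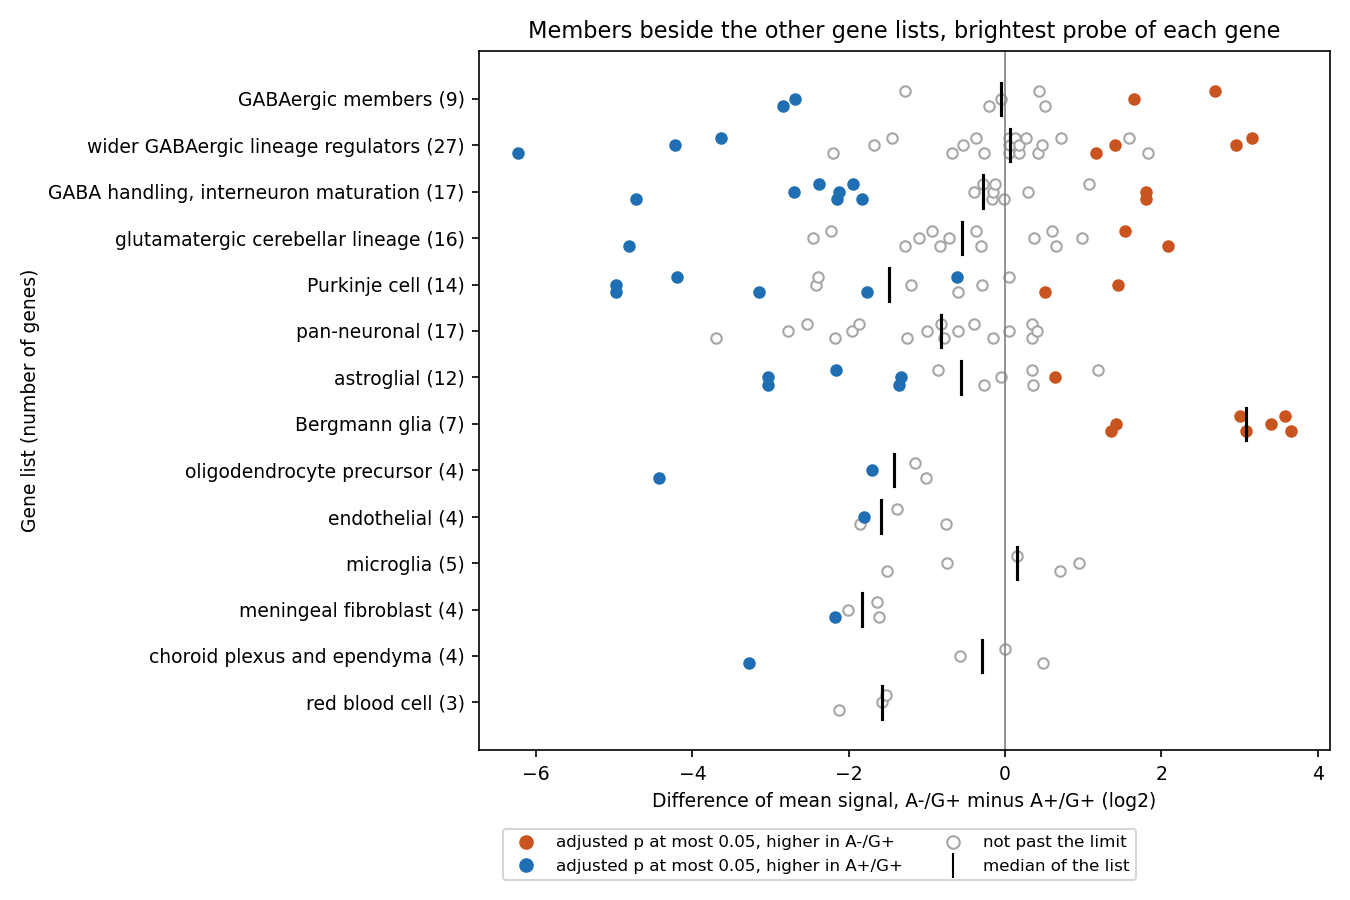
Difference of the mean log2 signal, A-/G+ minus A+/G+ (horizontal axis), of the brightest probe of each gene in the 9 members and in 13 other gene lists (vertical axis, number of genes in brackets); filled points passed the test and black bars are medians. The members spread on both sides of 0 around a median of -0.05, while the Purkinje cell genes lie mostly to the left and the 7 Bergmann glia genes all to the right.

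The remaining lists held few genes. A single gene passed higher in A+/G+ each in the endothelial list (Cdh5, difference -1.80), in the meningeal fibroblast list (Lum, -2.17) and in the list of choroid plexus and ependyma (Foxj1, a gene of ciliated cells, -3.27), and 0 genes passed with limma or with the methods' t-test in the microglia and red blood cell lists, with 1 and 3 genes at an unadjusted p under 0.05. The brightest genes were Cldn5 for endothelium, Col1a2 for fibroblasts, Ttr for choroid plexus, Csf1r for microglia and Hba-a1 for red blood cells, with differences of -1.85, -1.61, 0.48, 0.94 and -1.57 that did not pass. Hba-a1 was at mean log2 signals of 13.52 and 11.95, so hemoglobin signal was measured in both fractions.

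The profile of Ptf1a over the 6 arrays was then set beside those of the 13693 gene symbols whose brightest probe was well above background on all arrays, by the root mean square distance between profiles centred on their own mean. The nearest was 4921504E06Rik (distance 0.142 on the log2 scale, r of 0.995), followed by Col2a1, a collagen gene (0.153), Kirrel2 (0.182), Pcdh20, a protocadherin gene (0.182), and Ptx3, a pentraxin gene (0.184). Their differences were 2.62, 2.64, 2.95, 2.86 and 2.34. Since most of each profile is the difference between the fractions, the measure finds genes with a like difference, and the 6 arrays share their libraries, so no p is given. Tfap2b stood at rank 166 of these genes, with a distance of 0.596, while the Bergmann glia genes Wif1 and Gdf10 stood at ranks 11 and 18, nearer than any other member.

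**Figure D4:**
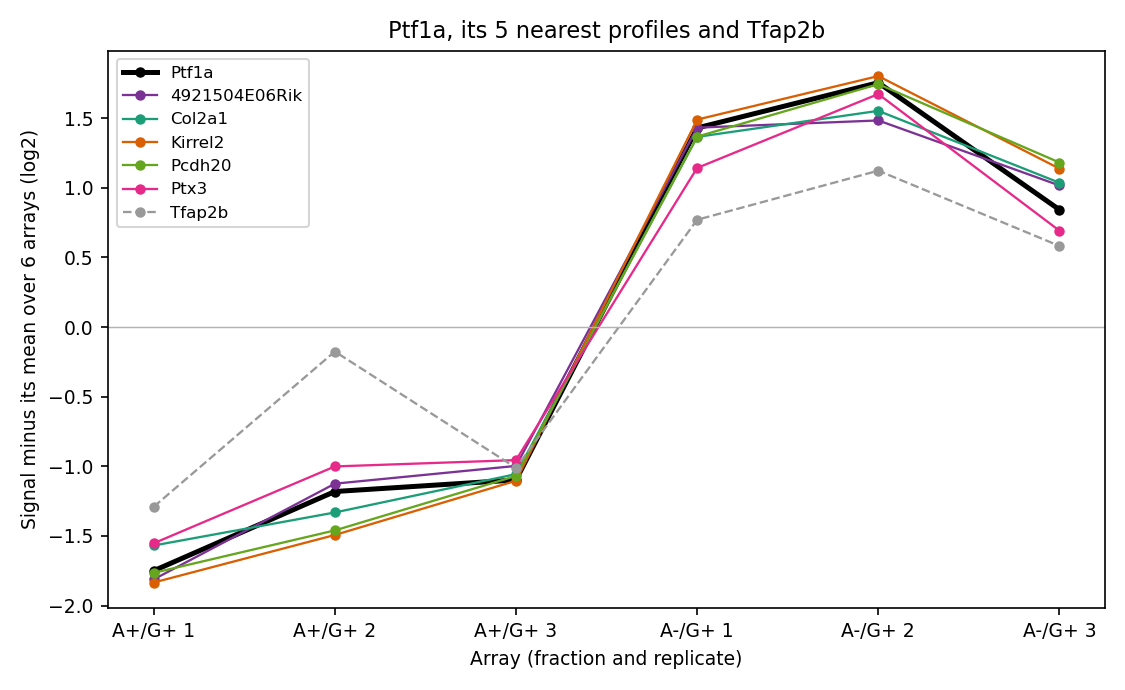
Log2 signal minus its mean over the 6 arrays (vertical axis) on each array (horizontal axis) for Ptf1a, the 5 genes nearest to it and Tfap2b (dashed). The 5 genes run close to Ptf1a on every array, with the A-/G+ array of replicate 3 lowest of its fraction, while Tfap2b is higher than Ptf1a on the A+/G+ array of replicate 2.

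The nearest of these profiles belongs to a neighbor of Ptf1a. On mm9 the 4921504E06Rik probe, on chr2:19384464-19384523, lies 15.7 kb from that of Ptf1a, on the side of higher coordinates. It gave 4.30, 4.99 and 5.12 in A+/G+ and 7.55, 7.60 and 7.13 in A-/G+ and was well above background on all 6 arrays (difference 2.62, standard error 0.267, adjusted p = 0.0107, limma). The array carries 10 probes within 250 kb of the Ptf1a probe, a window set after these values were seen. Between Ptf1a and 4921504E06Rik, 5.98 kb from Ptf1a, a probe for the Ensembl transcript ENSMUST00000070378 gave 4.47, 3.62 and 4.83 in A+/G+ and 7.44, 7.63 and 6.49 in A-/G+, with a difference of 2.88 (adjusted p = 0.0272, limma). The second 4921504E06Rik probe, 40.4 kb from Ptf1a, had a difference of 1.89 that did not pass (adjusted p = 0.167, limma). On the other side, Msrb2, 52.3 kb away, and Armc3, 137 kb away, were higher in A+/G+, with differences of -1.04 (adjusted p = 0.0169, limma) and -2.62 (adjusted p = 0.0439, limma). Otud1, 213 kb away, had a difference of -0.06 (adjusted p = 0.874, limma), and the other 3 probes, of which 1 lies 4.68 kb from Ptf1a on the side of 4921504E06Rik, were well above background on none of the arrays. Of the 6 probes on the side of 4921504E06Rik, 2 thus passed higher in A-/G+.

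**Figure D5:**
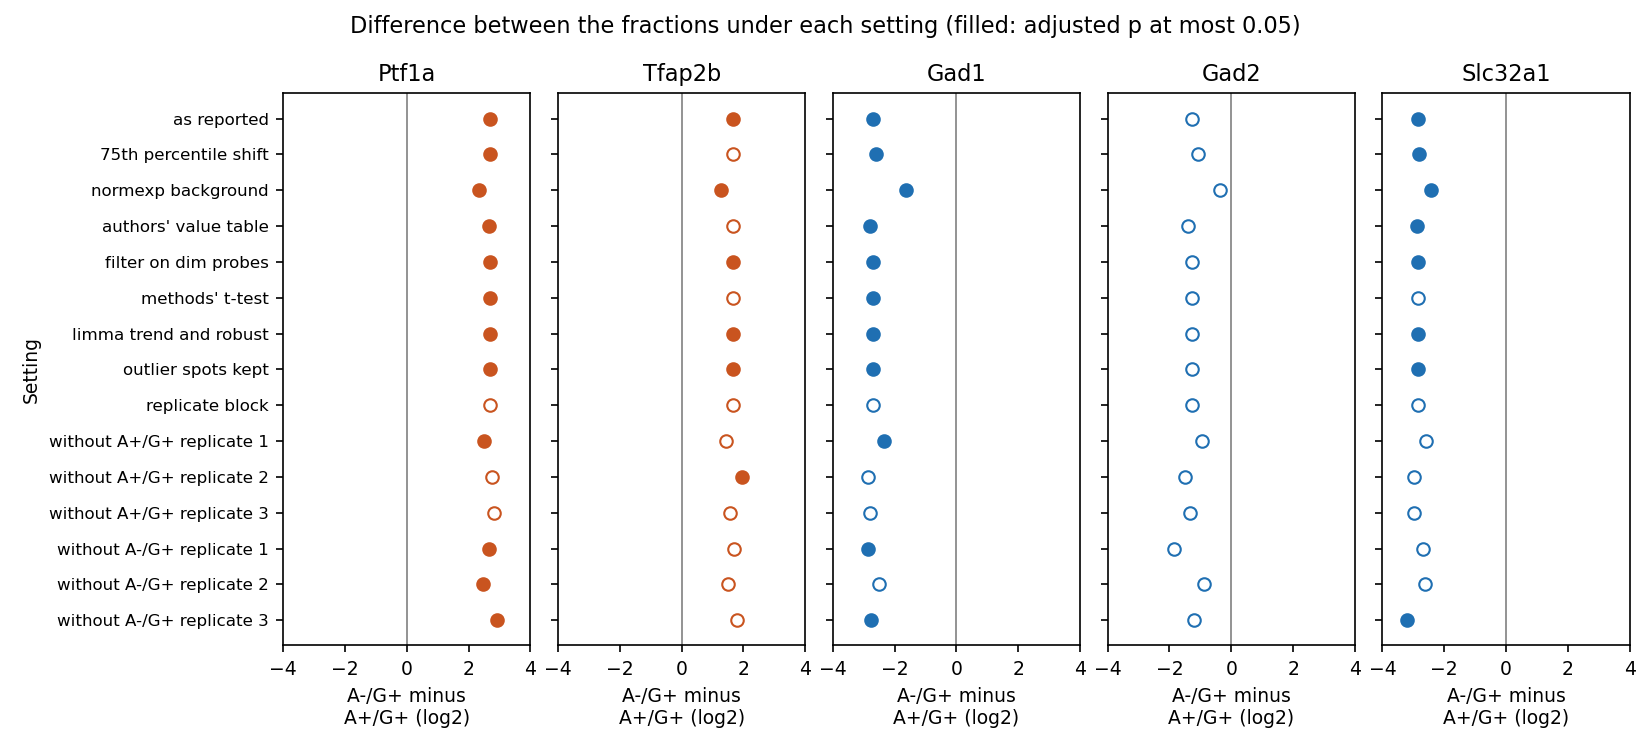
Difference of the mean log2 signal, A-/G+ minus A+/G+ (horizontal axes), of Ptf1a, Tfap2b, Gad1, Gad2 and Slc32a1 probe 1 as reported and under 14 other settings (vertical axis); filled points have an adjusted p of at most 0.05. Ptf1a and Tfap2b stay to the right of 0 and the other 3 genes to the left under every setting, some of which change only the test. Gad2 is open throughout, and Tfap2b and Slc32a1 are open under 9 and 7 of the 14 other settings. Ptf1a and Gad1 are filled under 11 and 10 of them.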

How the data were processed

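RNA of 3 A+/G+ and 3 A-/G+ samples was amplified, labeled with Cy3 and hybridized to Agilent mouse arrays, 1 array per sample. The authors deposited the scanner files of Agilent Feature Extraction 10.7.3.1, whose spot intensity is already corrected for background, and their own log2 values after quantile normalization, used here as an alternative.

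Here the intensities were taken to log2, control and outlier spots were dropped before quantile normalization, spots of 1 probe were averaged, and the fractions were compared over 55681 probes with limma 3.58.1 (R 4.3.3) without a filter on dim probes. The limits follow the methods, with limma in place of Student's test. Each member probe is 1 spot without an outlier mark on any array. A gene is represented by its probe with the highest mean signal. The 9 genes and the 13 other lists were chosen with earlier results of these data known. A probe dim on every array of a fraction has a bound there: the brighter mean against, per array, the higher of its own signal and the lowest signal of a probe well above background. Named are all members, the antigens of the sort, from each list the 4 genes with the smallest adjusted p within the limit and in the cell type lists the brightest, and the 5 profiles nearest to Ptf1a, with exceptions stated; some genes that this rule names are not reported here.

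The array's annotation is on mm9, and no genome was used. Of 200 simulated probes among 55660 with a log2 change of 1, 2 or 3, limma called 19.5%, 44.5% and 64.0%, with 7, 8 and 10 false calls. Precision is limited by the 6 arrays.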

Additional observations from a re-analysis of the deposited data

How the results depend on the processing

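Ptf1a, Tfap2b, Gad1, Gad2, Slc32a1 and the brighter Tfap2a probe kept their direction under every alternative tried. The filter on dim probes, the t-test, the trend and robust variance and a block for the replicate number leave each of these differences as it is. For direction, these alternatives are therefore no check. Ptf1a, Gad1 and Slc32a1 passed with the 75th percentile shift, normexp, the authors' table, the filter on dim probes and limma with trend and robust variance, whereas with the methods' t-test the difference of -2.84 for Slc32a1 did not pass (adjusted p = 0.0584). Tfap2b did not pass with the 75th percentile shift (difference 1.66, adjusted p = 0.0501, limma), the authors' table (1.65, adjusted p = 0.0544, limma) or the t-test (adjusted p = 0.101). Tfap2a passed as the mean of its probes (1.39, adjusted p = 0.00395, limma), of which one was within background on every array and the brighter did not pass. With single arrays left out, the differences ran from 2.47 to 2.93 for Ptf1a, 1.42 to 1.96 for Tfap2b, -2.87 to -2.35 for Gad1, -3.21 to -2.58 for Slc32a1, -1.85 to -0.89 for Gad2, 0.24 to 0.69 for Tfap2a, -1.87 to -0.77 for Lhx1 probe 2, -0.56 to 0.049 for Lhx1 probe 1, -0.46 to 0.29 for Lhx5, -0.71 to 0.96 for Pax2 probe 1 and -0.54 to 0.28 for Pax2 probe 2, where the last 4 changed sign. Pax2 probe 2 also changed sign with the 75th percentile shift (1.30) and normexp (0.051), as did Pax2 probe 3 with the shift (1.18). The shift moves the median difference of all probes from 0.04 to 1.02, and its cause was not tested.

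Past both limits, 222 probes lay toward A-/G+ and 851 toward A+/G+, so that 20.7% were higher in A-/G+. The shift gave 938 and 604 (60.8%), normexp 48 and 234, the t-test 121 and 487, 2-fold medians 1340 and 1797, and the adjusted p alone 2583 and 2589. At the adjusted p alone, the t-test called 1197 and 1351, and the shift 2658 and 1227. Without single arrays, 75 to 481 and 328 to 1448 probes passed both limits, and 409 to 4622 and 825 to 4469 the adjusted p, with the most without replicate 3 of A-/G+. Of the members' probes, 2 and 3 passed both limits, with normexp 1 and 1, with the t-test 1 and 1, with the filter 1 higher in A-/G+, and without single arrays 0 to 2 and 0 to 3; at the adjusted p alone 3 and 3 passed, with the t-test 1 and 1, and without single arrays 1 to 2 and 0 to 4.

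The labels number the replicates in both fractions without saying that a number marks a shared pool, so the numbers were not taken to pair the samples. The deviations of same-numbered arrays from their fraction means correlated with 0.196, 0.113 and -0.114. Those of differently numbered arrays correlated with -0.24 to 0.17. With 3 arrays in each fraction, these values cannot decide whether the samples were paired. With the replicate number as a block, limma called 0 probes, 0 of the members among them, although 11671 had an unadjusted p under 0.05, including 7 of the 14. In this balanced design the block cannot change a difference. The differences thus stayed at 2.69 (Ptf1a, adjusted p = 0.0855, limma), 1.65 (Tfap2b, 0.0839), -2.69 (Gad1, 0.0681), -2.84 (Slc32a1, 0.111) and -1.28 (Gad2, 0.0794). The standard error fell from 0.524 to 0.139 for Gad2, from 0.352 to 0.216 for Gad1 and from 0.336 to 0.192 for Tfap2b. It rose from 0.306 to 0.320 for Ptf1a and from 0.411 to 0.454 for Slc32a1. A block for the slide was not run, as no slide holds both fractions. Dim signals limit Pax2 in both fractions and Gad1 and Gad2 in A-/G+.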
